A study of Mus musculus with 12 samples.

Results

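The classical pathway of complement was followed through 8 of the 50559 genes in a count table of the mouse retina. These were C1qa, C1qb and C1qc, which encode the chains of C1q, C1ra and C1s1, which encode the proteases of the C1 complex, C2 and C4b, which encode the substrates of C1s, and Serping1, which encodes the C1 inhibitor. They were chosen by name for these roles, with earlier results of these data known, and not by a threshold on any measured value. All 8 had counts in all 12 libraries, and all 8 passed the filter on low counts in every comparison.

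C1q binds antibody complexes, dying cells and other surfaces, which activates C1r and then C1s. C1s cleaves C4 and C2, whose fragments form the C3 convertase, and the C1 inhibitor shuts off C1r and C1s. In the central nervous system C1q is made mainly by microglia and takes part in the removal of synapses, whereas glial cells and vascular cells are known sources of C4, of the proteases and of the inhibitor.

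Mice of the C57BL6/J wild-type strain were compared in 4 groups of 3 retinal RNA-Seq libraries, all taken on postnatal day 28. Every pup had received 30 µg of antibody under the skin on day 1. In the IgG and IgG+Mino groups this was an isotype control. In the APB5 and APB5+Mino groups it was APB5, a rat monoclonal antibody that blocks mouse PDGFRβ, the receptor by which pericytes are recruited to vessels. The IgG+Mino and APB5+Mino groups were also given minocycline, a tetracycline known to restrain microglia, at 45 mg/kg in the peritoneum each day from day 5 to day 27. Both agents reached the whole animal, so neither group is a model of 1 retinal cell type. Each group was of 3 mice, as many as its libraries. The mice were of mixed sex, and the sex behind each library is not given in the sources used here.

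Libraries held 52740545 to 59411044 counts, so that 3 counts, taken as the floor, equalled 0.0456 to 0.0585 CPM (counts scaled to library size with TMM factors). APB5 replicate 3 stood apart from the rest. On the first principal component, with 38.5% of the variance, it lay at 126.9 and the other 11 libraries between −53.8 and 25.6. Gnat1, the transducin subunit of rod photoreceptors, was 2854 CPM in this library and 9449 to 15518 CPM in the others, so the labelled tissue was present in all 12. Gnat1 was chosen after its values were seen. In APB5 replicate 3 the 12 reactive glia genes, such as Gfap, summed to 6308 CPM against 470.2 to 822 CPM elsewhere, the 10 fibroblast and sclera genes to 957 against 42.5 to 162 CPM, and the 9 pigment epithelium and choroid genes to 1182 against 297.4 to 567 CPM. The main results that rest on APB5 are therefore given with and without it, and the part of these other tissues in them was not tested. The transcript Xist, made from the inactive X chromosome of females, had at least 47210 counts in all 3 IgG libraries, in APB5 replicate 3 and in APB5+Mino replicate 3, and at most 38 counts in the other 7. Within a group, high and low libraries thus occurred together only in APB5 and APB5+Mino. Each fit with Xist as a covariate rests largely on replicate 3 of these groups. Sex and what else sets APB5 replicate 3 apart cannot be fully separated in it.

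In IgG retinas, levels per kilobase of the principal transcript put C1qa first, at 7.96 ± 1.21 CPM per kilobase (mean ± SD, n = 3), and the 3 IgG libraries of C1qa did not overlap those of the next gene. Serping1 followed at 5.36 ± 1.43, C1qc at 3.97 ± 1.66, C1qb at 2.99 ± 0.703 and C4b at 1.90 ± 0.654 CPM per kilobase, and each of these overlapped its neighbour in the order. C1s1 (0.627 ± 0.0259), C1ra (0.545 ± 0.113) and C2 (0.515 ± 0.115 CPM per kilobase) lay below all of them and overlapped one another. The recognition chains and the inhibitor were thus sequenced far more deeply than the proteases and C2, which had as few as 25 counts in a library.

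**Figure D1:**
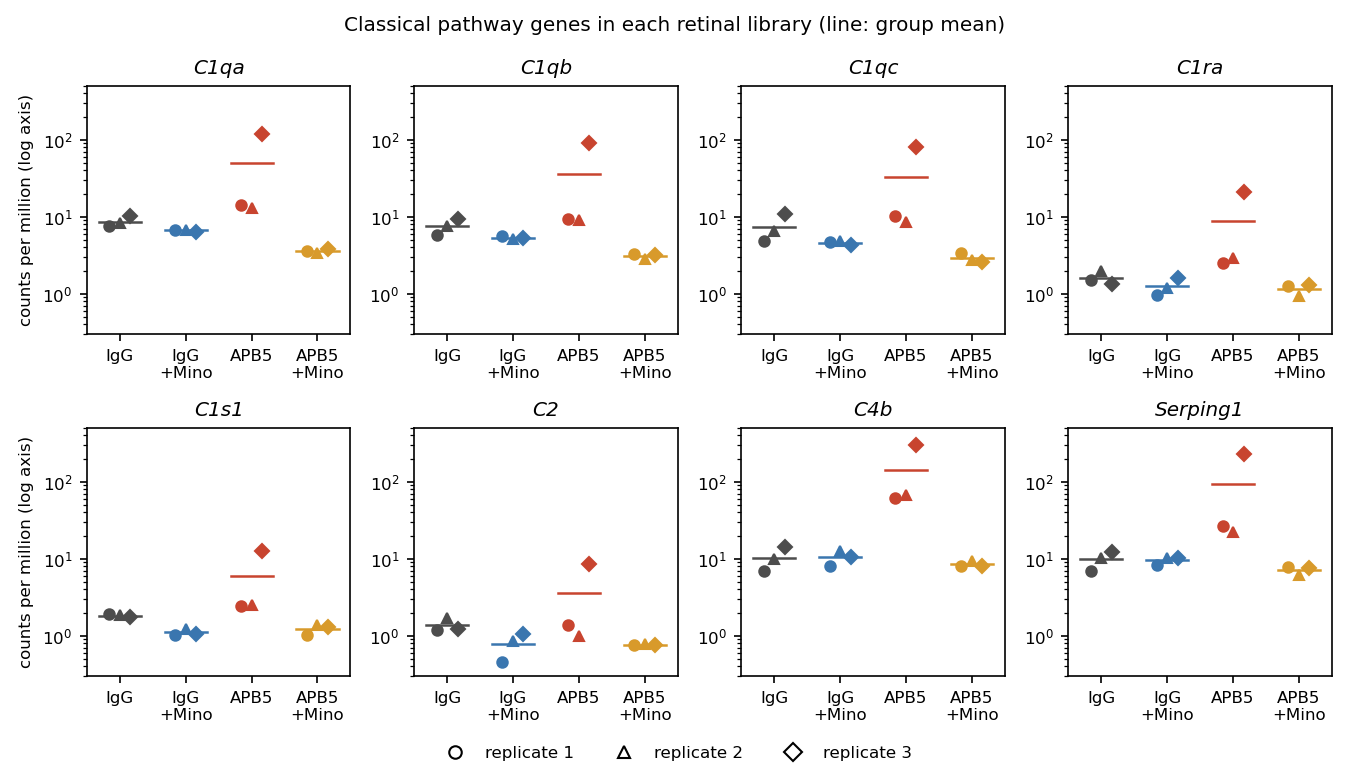
CPM (TMM-scaled) of the 8 genes on a log axis, by group (IgG, IgG+Mino, APB5 and APB5+Mino), with 1 point per library, the replicate number as its shape and the group mean as a line. APB5 replicate 3 is the highest point in every panel, and C4b is the gene whose other APB5 libraries, at 62.3 and 68.0 CPM, also lie far above the IgG libraries at 6.98 to 14.0 CPM.

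The first comparison, APB5 against IgG, asked what blocking PDGFRβ did to these genes. Their median log2 fold change was 2.34 against −0.0024 over all 20350 genes tested. Calls required an edgeR adjusted P no higher than 0.05 together with a change of 1 or more on the log2 scale, in either direction. None of the 8 was called, as no gene of the table was called higher (0% of those tested). At an unadjusted P of at most 0.05, 7 of 8 were higher by at least that fold, which 3.18% of genes were. For 5 of 8 (C1qa, C1ra, C1s1, C4b and Serping1) every APB5 library lay above every IgG library, a pattern held by 7.84% of genes. DESeq2 called 1 member, C4b, where it called 0.446% of genes higher, and gave no adjusted P for 4 others. With the spread of all 12 libraries shared in 1 fit, C4b alone was called (0.033% of genes called higher). With Xist as a covariate in that fit 7 members were called, all but C2, where 4.61% of genes were called higher. Without APB5 replicate 3 edgeR also called C4b alone, where 0.0868% of genes were called higher, and the median log2 fold change of the 8 was 0.55. This sets 3 libraries high in Xist against 2 low in it, so antibody and sex cannot be told apart without replicate 3, and this holds for each value of APB5 against IgG given without it.

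Minocycline in antibody-treated mice, APB5+Mino against APB5, had all 8 genes in 1 direction. Each was lower in every APB5+Mino library than in every APB5 library, which 23.3% of the genes tested were. Their median log2 fold change was −3.52 against −0.0205 over all genes. Only C4b was called, where 0.819% of genes were called lower. DESeq2 called 4 members (C1ra, C1s1, C2 and C4b), where it called 5.06% of genes lower, and gave no adjusted P for the other 4. In fits of all 12 libraries all 8 were called, where 5.38% of genes were called lower, or 5.43% with Xist as a covariate. Without the count filter 5 were called (1.05% of genes), and without TMM scaling none (0.0247% of genes). With the replicate number as a block none was called (0% of genes called lower), although all 8 kept a negative log2 fold change, from −3.65 for C4b to −1.53 for C2. Without APB5 replicate 3 the spread shrank and 7 of 8 were called lower, all but C2, where 2.53% of genes were called lower. The median log2 fold change of the 8 was then −1.63. Leaving out APB5 replicate 2 gave 8 calls, and leaving out APB5 replicate 1 or any APB5+Mino library gave 0, against 5.04%, 0.00479% and 0% of genes called lower.

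Minocycline without PDGFRβ blockade, IgG+Mino against IgG, left all 8 uncalled in edgeR and in DESeq2, with 0.00993% of genes called lower and 0.0199% called higher by edgeR. The median log2 fold change of the 8 was −0.43 against −0.0102 over all genes. The C1q chains, C1s1 and C2 were lower in all 3 IgG+Mino libraries than in all 3 IgG libraries, 5 of 8 against 7.48% of all genes. At an unadjusted P of at most 0.05, 4 of 8 (the C1q chains and C1s1) were lower, against 3.39% of genes. The IgG libraries were all high in Xist and the IgG+Mino libraries all low, so minocycline and sex cannot be told apart in this comparison. With Xist added to the model of the 12 libraries, 7 of 8 members turned to positive log2 fold changes, from 0.60 for C1s1 to 1.76 for Serping1, and C4b was positive in both fits. Neither group holds both high and low libraries, so this adjustment comes largely from APB5 replicate 3 and APB5+Mino replicate 3. It cannot be read as a minocycline difference free of sex.

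The 2 minocycline groups, APB5+Mino against IgG+Mino, were compared for what remained of the antibody difference under the drug. No member reached the fold threshold, where 0.349% of genes were called lower and 0.878% called higher, and the count was also 0 with DESeq2. Without that threshold the 3 C1q chains passed at an edgeR adjusted P of at most 0.05, all lower in APB5+Mino, where 3.28% of genes passed in that direction. These chains and Serping1 were lower in every APB5+Mino library, 4 of 8 against 17.2% of all genes. At an unadjusted P of at most 0.05 the same 4 were lower, against 14.6% of genes. The median log2 fold change of the 8 was −0.36, and that of all genes −0.0092.

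Whether the minocycline difference depended on the antibody was tested as an interaction in a fit of all 12 libraries. It was negative for all 8 genes, with a median of −2.92 on the log2 scale against −0.0239 for all genes, but none was called (0.0141% of genes called lower). At an unadjusted P of at most 0.05 and the fold threshold 6 of 8 were lower, against 4.56% of genes. DESeq2 called 1 member, where it called 1.16% of genes lower, and gave no adjusted P for 5 others. With Xist as a covariate 7 were called (3.07% of genes called lower), and without the count filter 1 was (0.0741% of genes). Without APB5 replicate 3 it was called for C1qa, C4b and Serping1, where 0.241% of genes were called lower, and without APB5 replicate 2 for 2 genes, where 0.345% were. The interaction contains IgG+Mino against IgG, in which minocycline and sex cannot be told apart. It therefore cannot be read as free of sex either. Without APB5 replicate 3 the APB5 libraries left are also all low in Xist.

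**Figure D2:**
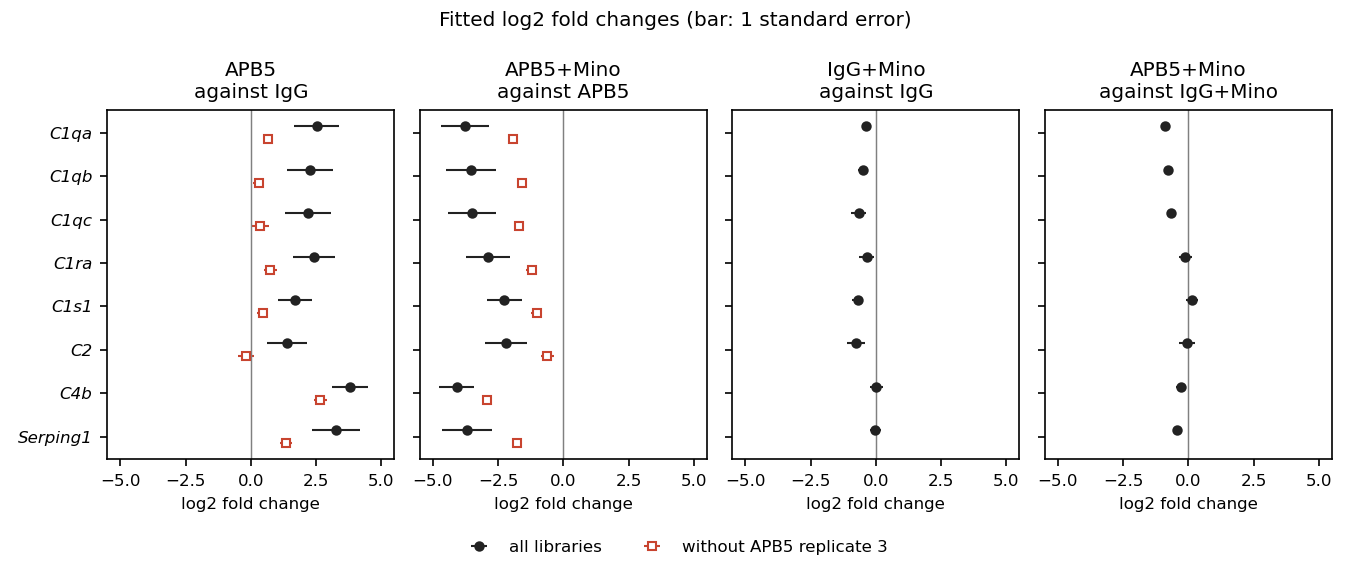
Log2 fold changes fitted by edgeR for the 8 genes in the 4 comparisons of groups, with all libraries (black circles) and without APB5 replicate 3 (open squares), and bars of 1 standard error. Without that library the estimates move towards 0 in both comparisons that hold APB5 and their bars shorten, C4b remains far from 0 in both, at 2.66 and −2.94, and C2 crosses 0 in APB5 against IgG.

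The 3 C1q chains lie side by side on chromosome 4 of GRCm39, all on the minus strand, in the order C1qb (136606009 to 136613511), C1qc (136616466 to 136620376) and C1qa (136623223 to 136626161), with gaps of 2954 and 2846 bases. Windows of 300 bases around gene starts, from 250 bases before to 50 after, were read from RefSeq (table of GRCm38.p6), which held C1qb and C1qc, and each matched GRCm39 exactly once on the minus strand, at chr4:136613462-136613761 and chr4:136620176-136620475. They are shown because these neighbouring genes had nearly parallel levels. Positions count from the RefSeq starts, and that of C1qc lies inside the span given above, not at its end. Capitals in C1qc mark the reverse complement of GAGGAAG, the core of the motif of PU.1, a transcription factor of macrophages, at position −194 from the start. Of all 32851 windows in the table, 13.6% held that core on either strand.
C1qb: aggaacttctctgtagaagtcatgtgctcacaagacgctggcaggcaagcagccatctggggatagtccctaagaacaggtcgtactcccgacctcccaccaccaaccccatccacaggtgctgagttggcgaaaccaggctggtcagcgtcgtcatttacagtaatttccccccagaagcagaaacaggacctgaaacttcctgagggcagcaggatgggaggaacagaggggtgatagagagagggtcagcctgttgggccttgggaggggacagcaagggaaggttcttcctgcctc
C1qc: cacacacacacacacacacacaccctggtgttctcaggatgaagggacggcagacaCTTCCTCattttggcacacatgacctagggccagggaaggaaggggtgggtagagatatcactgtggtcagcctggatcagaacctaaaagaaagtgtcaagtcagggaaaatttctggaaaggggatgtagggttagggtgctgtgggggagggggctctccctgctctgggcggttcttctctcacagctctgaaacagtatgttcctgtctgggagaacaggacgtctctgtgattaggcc
None of the other motifs searched on both strands (the interferon response element, GAAA and GAAA with 2 bases between, in 3.44% of windows, TTCNNNGAA of STAT factors in 8.3% and the NF-kB core, GGG and TTTCC with 2 bases between, in 1.63%) was in these letters, and the motifs do not overlap here.

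C1qa stood at 7.61, 8.22 and 10.1 CPM in the 3 IgG libraries and at 6.75, 6.80 and 6.39 CPM in IgG+Mino. It was 14.2, 13.01 and 121 CPM in APB5 and 3.59, 3.39 and 3.79 CPM in APB5+Mino. APB5 libraries were all higher than IgG libraries, replicate 3 by far, and APB5+Mino libraries were the lowest of all. In APB5 against IgG the log2 fold change was 2.52 ± 0.86 (SE, edgeR adjusted P = 0.664), and without APB5 replicate 3 it was 0.66 ± 0.17 (adjusted P = 0.598). Between APB5+Mino and APB5 it was −3.77 ± 0.93 (edgeR adjusted P = 0.055), and without that library C1qa fell by 1.92 on the log2 scale (SE 0.12, adjusted P = 0.000166). Here, as in all bulk tissue, fewer cells of a type and less RNA in each cell cannot be told apart.

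C1qb and C1qc followed C1qa closely. C1qb was 5.82, 7.55 and 9.38 CPM in IgG, 5.63, 5.16 and 5.22 in IgG+Mino, 9.49, 9.14 and 89.8 in APB5, and 3.32, 2.81 and 3.22 CPM in APB5+Mino. C1qc was 4.80, 6.50 and 10.8 CPM in IgG, 4.70, 4.79 and 4.29 in IgG+Mino, 10.4, 8.52 and 80.7 in APB5, and 3.36, 2.75 and 2.60 CPM in APB5+Mino. For both genes the lower APB5 libraries overlapped the highest IgG library, and no APB5+Mino library overlapped another group. In APB5 against IgG without APB5 replicate 3 the log2 fold changes were 0.30 ± 0.22 for C1qb and 0.36 ± 0.32 for C1qc (SE, edgeR adjusted P = 0.902 and 0.919). Under minocycline, without that library, C1qb fell by 1.57 and C1qc by 1.69 on the log2 scale (edgeR adjusted P = 0.000552 and 0.000823). The chains held similar shares of their summed counts in all libraries, with C1qa at 33.4% to 42.4%, C1qb at 27.8% to 33.9% and C1qc at 26.3% to 35.6% of the sum over all 12 libraries.

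The C1q chains were also lower in APB5+Mino than in IgG+Mino. The group means differed 1.85-fold for C1qa, 1.71-fold for C1qb and 1.58-fold for C1qc. The log2 fold changes were −0.89 ± 0.13, −0.77 ± 0.14 and −0.66 ± 0.16 (SE, edgeR adjusted P = 0.0125, 0.021 and 0.0412), and all 3 APB5+Mino libraries lay below all 3 IgG+Mino libraries. This rested on few libraries. For C1qa the adjusted P was 0.0674 without IgG+Mino replicate 3, 0.0798 without APB5+Mino replicate 2 and 0.087 without APB5+Mino replicate 3, and for C1qb it was 0.0797, 0.114 and 0.113 without the same libraries. C1qc kept an adjusted P of at most 0.05 without IgG+Mino replicate 1 alone (0.0314), and in the fits that left out another library it was 0.0568 to 0.185. In a fit of all 12 libraries, in which the spread of APB5 is shared, the adjusted P of the 3 chains was 0.514 to 0.653, and with Xist as a covariate 0.163 to 0.298, at log2 fold changes of −1.39 to −1.07.

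Because C1q is mainly a product of microglia, its summed chains were set beside 18 other microglia and macrophage genes. The list summed to 72.2, 82.5 and 113 CPM in IgG, 57.4, 66.6 and 66.6 in IgG+Mino, 94.0, 89.4 and 425 in APB5, and 42.3, 38.8 and 40.8 CPM in APB5+Mino. The summed chains were 18.2, 22.3 and 30.3 CPM in IgG, 17.1, 16.8 and 15.9 in IgG+Mino, 34.1, 30.7 and 291 in APB5, and 10.3, 8.95 and 9.61 CPM in APB5+Mino. Both sums were thus lowest in APB5+Mino, and in APB5 the chains stood higher relative to the list. On the log2 scale the ratio of chains to list was −1.93 ± 0.0515 in IgG, −1.94 ± 0.165 in IgG+Mino, −1.18 ± 0.554 in APB5 and −2.08 ± 0.0366 in APB5+Mino (mean ± SD, n = 3).

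The 3 APB5 libraries, at −1.46, −1.54 and −0.55, had higher ratios than all others, also without replicate 3. The difference was 0.74 from IgG and 0.90 from APB5+Mino, each at P = 0.1 in a two-sided exact permutation test, the smallest value that 3 against 3 libraries allow, and 0.229 after adjustment over 16 comparisons of ratios. The difference without APB5 replicate 3 was 0.42 from IgG and 0.58 from APB5+Mino. IgG+Mino and IgG differed by 0.0086 (exact permutation P = 0.9). In APB5 against IgG 15 of the 18 list genes had positive log2 fold changes, with a median of 1.16, or 0.0609 without APB5 replicate 3. Tyrobp, a signalling adaptor of myeloid cells, was 2.71, 2.15 and 20.7 CPM in APB5 and 1.37, 1.56 and 1.97 CPM in IgG.

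**Figure D3:**
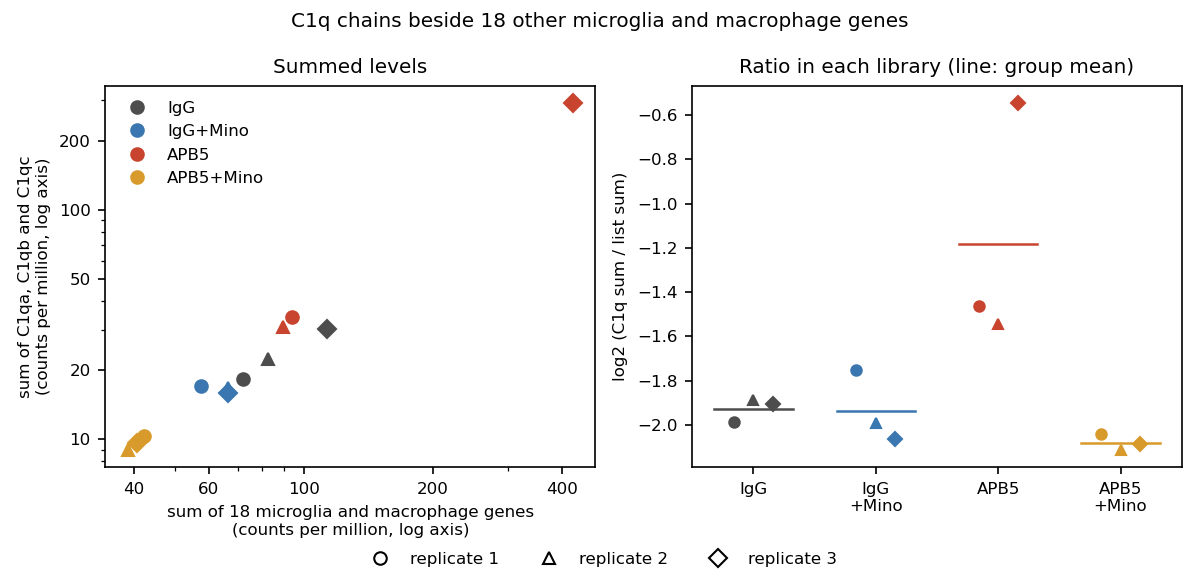
Left, the summed CPM of C1qa, C1qb and C1qc against the sum of 18 other microglia and macrophage genes, both on log axes, with 1 point per library coloured by group. Right, the log2 ratio of the sums by group, with the group mean as a line. APB5+Mino libraries cluster at the lower left, and the 3 APB5 libraries have the highest ratios, −1.54 to −0.55, with APB5 replicate 3 at the top of both panels.

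The proteases of C1 were the rarer partners. C1ra (chromosome 6, plus strand, 124489364 to 124500402) and C1s1 (minus strand, 124507297 to 124559389) are neighbours 6894 bases apart. Each has a near copy on the same chromosome, C1rb for C1ra and C1s2 for C1s1. C1rb lies within the span of C1s1 on the opposite strand, and C1s2 lies 43453 bases beyond C1rb. Of the windows of 50 bases, the read length, along the principal C1ra transcript, 48.0% also occur in C1rb, and 24.5% of those of C1s1 occur in C1s2 and 15.1% in the locus Gm16567. The use of strand in counting and the handling of reads that fit both copies are not given in the sources used here. C1rb had 0 to 11 counts per library and C1s2 2 to 30, which was 0% to 6.04% of C1ra plus C1rb and 3.39% to 16.2% of C1s1 plus C1s2.

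The RefSeq windows of C1ra (chr6:124489330-124489629, plus strand) and C1rb (chr6:124547139-124547438, plus strand), placed on GRCm39 by their only exact match, are shown because the copies share bases yet differ widely in counts. Their longest identical run was 34 bases, and it began at −99 from the annotated start of C1ra and at −250 from that of C1rb. Capitals mark TTCNNNGAA, the letters of a STAT site, which 8.3% of all windows held. They lie at 32 from the start of C1ra and at −119 from that of C1rb. In both windows this is the same distance beyond the start of the identical run. The letters between are mostly the same in both windows, so the annotated starts differ rather than the place of the motif in the copies.
C1ra: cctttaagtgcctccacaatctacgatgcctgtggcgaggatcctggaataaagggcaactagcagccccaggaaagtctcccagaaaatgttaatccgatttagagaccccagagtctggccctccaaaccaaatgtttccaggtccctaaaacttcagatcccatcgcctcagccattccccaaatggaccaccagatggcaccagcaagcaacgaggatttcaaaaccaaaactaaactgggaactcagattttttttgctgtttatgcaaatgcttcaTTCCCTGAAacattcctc
C1rb: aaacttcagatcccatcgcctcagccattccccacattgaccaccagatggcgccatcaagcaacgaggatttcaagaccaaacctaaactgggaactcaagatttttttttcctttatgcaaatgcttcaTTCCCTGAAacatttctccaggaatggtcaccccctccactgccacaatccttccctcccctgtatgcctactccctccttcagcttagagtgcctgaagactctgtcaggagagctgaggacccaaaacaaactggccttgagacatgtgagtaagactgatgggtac
The RefSeq windows of C1s1 (chr6:124519231-124519530 and chr6:124519269-124519568) held none of the 4 motifs. They lie well inside the span of C1s1 given above, and the RefSeq start of C1ra also lies inside its span.

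C1ra was 1.52, 2.0 and 1.35 CPM in IgG, 0.965, 1.18 and 1.63 in IgG+Mino, 2.53, 2.96 and 20.9 in APB5, and 1.27, 0.936 and 1.28 CPM in APB5+Mino. C1s1 was 1.89, 1.84 and 1.74 CPM in IgG, 1.04, 1.23 and 1.04 in IgG+Mino, 2.46, 2.54 and 12.8 in APB5, and 1.02, 1.37 and 1.28 CPM in APB5+Mino. Both proteases had all APB5 libraries above those of the other groups, while the minocycline groups overlapped each other. In APB5 against IgG the log2 fold change was 2.42 ± 0.82 for C1ra and 1.69 ± 0.65 for C1s1 (SE, edgeR adjusted P = 0.664 for both), and 0.75 ± 0.25 and 0.45 ± 0.20 without APB5 replicate 3 (adjusted P = 0.776 and 0.872).

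The log2 fold change in APB5+Mino against APB5 was −2.89 ± 0.85 for C1ra and −2.26 ± 0.68 for C1s1 (SE, edgeR adjusted P = 0.0701 and 0.0727). Without APB5 replicate 3 C1ra fell by 1.22 and C1s1 by 1.02 on the log2 scale (edgeR adjusted P = 0.00668 and 0.0107). C1s1 was also lower in every IgG+Mino library than in every IgG library, at −0.70 ± 0.22 (edgeR adjusted P = 0.585). The log2 ratio of C1ra to C1s1 was −0.19 ± 0.268 in IgG and 0.32 ± 0.345 in APB5 (mean ± SD, n = 3), and the groups overlapped (exact permutation P = 0.2).

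The authors' mean normalized counts per transcript, which carry no spread, gave C1s1 5 RefSeq transcripts. The principal one held 87.6% of the gene's sum in IgG and 74.6% in APB5, and, in a table normalized apart from that one, 74.6% in APB5 and 34.8% in APB5+Mino. The sum itself was 349.9 in APB5 and 66.7 in APB5+Mino in that table. C1qa, C1qb, C1ra and C2 had 1 transcript each, and the principal transcripts of C1qc, C4b and Serping1 held 92.7% to 100% of their gene's sum in every group.

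C4b (chromosome 17, minus strand, 34947354 to 34962912), whose product is cleaved by C1s, had the largest log2 fold changes of the 8 in both comparisons with APB5. It was 6.98, 9.88 and 14.0 CPM in IgG, 7.96, 12.7 and 10.5 CPM in IgG+Mino, 62.3, 68.0 and 301 CPM in APB5, and 8.05, 9.36 and 8.02 CPM in APB5+Mino. The other 3 groups overlapped one another, and all APB5 libraries lay above them. The APB5 mean was 14.0-fold the IgG mean, and 6.33-fold without replicate 3.

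The log2 fold change in APB5 against IgG was 3.81 ± 0.69 (SE, edgeR adjusted P = 0.664; rank 16 of 20350 by P), and without APB5 replicate 3 C4b rose by 2.66 ± 0.26 (adjusted P = 0.0189). It was not called without any other single library, at adjusted P of 0.426 to 0.968. Against APB5, C4b in APB5+Mino fell by 4.09 on the log2 scale (SE 0.67, edgeR adjusted P = 0.0461), with an adjusted P of 0.0641 under the replicate block. Without APB5 replicate 3 it fell by 2.94 (SE 0.10, edgeR adjusted P = 7.36e-06), and the adjusted P was 0.105 without APB5 replicate 1 and 0.117, 0.214 and 0.205 without APB5+Mino replicates 1, 2 and 3. Minocycline in IgG mice left C4b at a log2 fold change of 0.024 ± 0.26 (edgeR adjusted P = 0.981).

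C4a, a near copy of C4b that lies 65156 bases away on the same strand, shares 34.8% of the 50-base windows of C4b. Its level did not follow that of C4b. C4a was 2.37 to 2.79 CPM in IgG, 2.12 to 2.68 in IgG+Mino, 2.53 to 3.32 in APB5 and 3.06 to 3.56 CPM in APB5+Mino, with log2 fold changes of 0.20 ± 0.23 in APB5 against IgG and 0.20 ± 0.19 in APB5+Mino against APB5 (SE, edgeR adjusted P = 0.822 and 0.47). C4b made up 71.5% to 85.6% of C4a plus C4b counts in IgG, 75.9% to 83.2% in IgG+Mino, 95.9% to 98.9% in APB5 and 69.3% to 75.4% in APB5+Mino. With both copies summed, the log2 fold change in APB5+Mino against APB5 was −3.63 (edgeR adjusted P = 0.0461).

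**Figure D4:**
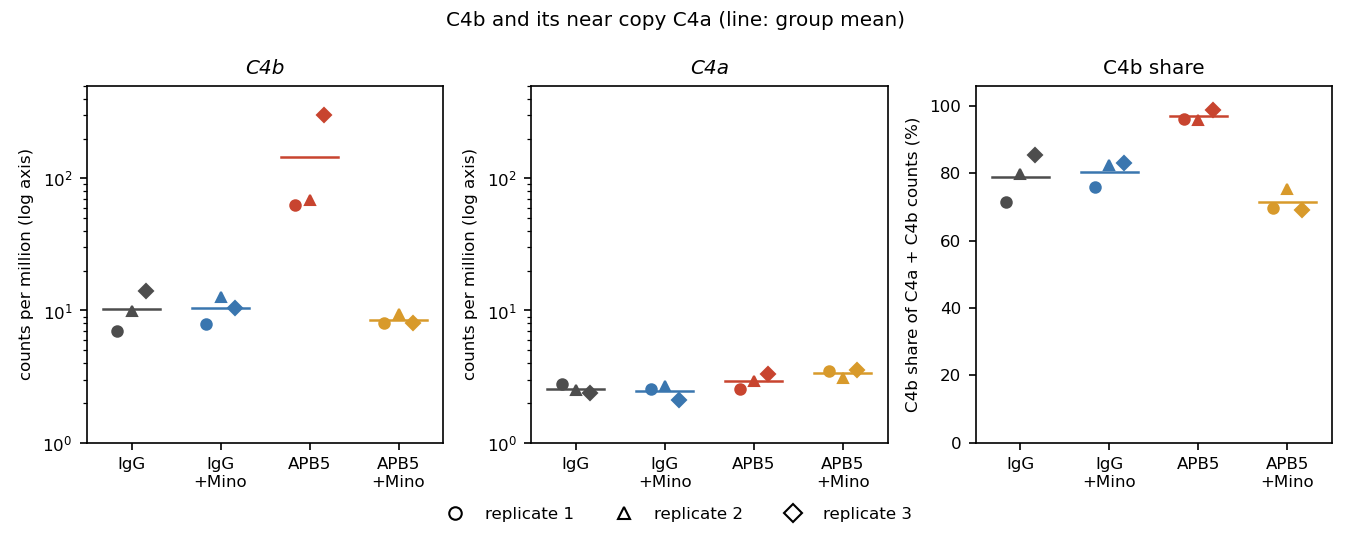
CPM of C4b and of C4a on the same log axis, and the percentage of their summed counts that C4b holds, with 1 point per library and the group mean as a line. C4a stays between 2.12 and 3.56 CPM in all 12 libraries while C4b spans 6.98 to 301 CPM, and the share of C4b is above 95% in APB5 only.

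C2 (chromosome 17, minus strand, 35081578 to 35117241), the other substrate of C1s, had the smallest log2 fold changes of the 8 in both comparisons with APB5. It was 1.17, 1.72 and 1.21 CPM in IgG, 0.455, 0.863 and 1.06 in IgG+Mino, 1.39, 0.986 and 8.46 in APB5, and 0.768, 0.780 and 0.753 CPM in APB5+Mino. Only APB5 replicate 3 stood above the IgG libraries. The log2 fold change in APB5 against IgG was 1.39 ± 0.77 (SE, edgeR adjusted P = 0.686) and turned to −0.19 ± 0.30 without that library (adjusted P = 0.955). Between APB5+Mino and APB5 it was −2.19 ± 0.80 and −0.61 ± 0.26 (edgeR adjusted P = 0.105 and 0.112). The log2 ratio of C4b to C2 was 2.88 ± 0.573 in IgG, 3.77 ± 0.421 in IgG+Mino, 5.58 ± 0.484 in APB5 and 3.46 ± 0.106 in APB5+Mino (mean ± SD, n = 3), and no library of APB5 overlapped another group (exact permutation P = 0.1 against IgG and against APB5+Mino, adjusted 0.229). Of the 8, C2 shared the largest part of its 50-base windows with other genes, 57.6%, all with the overlapping locus Gm20547. Whether that locus was in the annotation used for counting was not checked.

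Serping1 (chromosome 2, minus strand, 84595705 to 84620873), the inhibitor of C1r and C1s, shares no 50-base window with another gene. It was 6.99, 10.3 and 12.2 CPM in IgG, 8.21, 10.3 and 10.3 in IgG+Mino, 27.01, 22.4 and 230 in APB5, and 7.79, 6.18 and 7.53 CPM in APB5+Mino. All APB5 libraries lay above those of the other groups, and all APB5+Mino libraries below those of IgG+Mino. The log2 fold change in APB5 against IgG was 3.25 ± 0.92 (SE, edgeR adjusted P = 0.664), and 1.33 ± 0.23 without APB5 replicate 3 (adjusted P = 0.223). Between APB5+Mino and APB5 it was −3.70 ± 0.95 (edgeR adjusted P = 0.0572), and without that library Serping1 fell by 1.78 on the log2 scale (SE 0.13, adjusted P = 0.000389).

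The inhibitor was also set beside its targets. The log2 ratio of Serping1 to summed C1ra and C1s1 was 1.48 ± 0.475 in IgG, 2.03 ± 0.0737 in IgG+Mino, 2.41 ± 0.372 in APB5 and 1.58 ± 0.173 in APB5+Mino (mean ± SD, n = 3). APB5 did not overlap IgG or APB5+Mino (exact permutation P = 0.1 each, adjusted 0.229), and APB5+Mino lay below IgG+Mino by 0.45 (exact permutation P = 0.1, adjusted 0.229). With 3 libraries a group this test cannot go below 0.1.

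Other parts of the complement cascade were described from lists of genes. In APB5+Mino against APB5 the C3 and alternative pathway list had 3 of 4 genes tested, with a median log2 fold change of −5.22, and the lectin pathway list had 3 of 8 tested and a median of 0.0781. Neither list had a call. The medians without APB5 replicate 3 were −2.11 and 0.42. Of the first list 2 of the 3 genes, C3 and Cfb, were then called lower, where 2.53% of all genes were. C3, on which all pathways converge, was 1.54, 2.37 and 2.30 CPM in IgG, 2.51, 2.87 and 2.25 in IgG+Mino, 6.51, 8.74 and 182 in APB5, and 1.66, 1.60 and 1.96 CPM in APB5+Mino. Its log2 fold change in APB5 against IgG was 4.98 ± 1.35 (SE, edgeR adjusted P = 0.664), or 1.87 without APB5 replicate 3 (adjusted P = 0.064). Between APB5+Mino and APB5 it was −5.22 ± 1.40 (SE, edgeR adjusted P = 0.0607), or −2.11 without that library (adjusted P = 0.000533). Of 7 terminal pathway genes 1, C8g, passed the filter, and its level was at most 0.931 CPM in all 12 libraries.

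Of 16 complement regulators 13 were tested in APB5+Mino against APB5, and 2 were called lower and 1 higher, where 0.819% of all genes were called lower and 0.838% higher. The calls without APB5 replicate 3 were 3 and 1, where 2.53% of genes were called lower and 1.95% higher. Cfi, the protease that cleaves C3b and C4b, fell by 3.66 on the log2 scale (SE 0.72, edgeR adjusted P = 0.0472), from 2.17, 2.57 and 9.54 CPM to 0.179, 0.566 and 0.301 CPM. Cd59a, a membrane inhibitor of the terminal pathway, fell by 1.06 (SE 0.12, edgeR adjusted P = 0.043), and here APB5 replicate 3 at 56.2 CPM was like the other APB5 libraries at 54.9 and 59.9 CPM. Csmd1, a neuronal complement regulator, rose by 1.19 ± 0.19 (edgeR adjusted P = 0.0447), from 4.97, 7.15 and 5.51 CPM to 11.9, 15.4 and 13.2 CPM. All 3 had an adjusted P of 0.0641 under the replicate block. Of 10 complement receptors 5 were tested, with no call and a median of −2.20 on the log2 scale. Without APB5 replicate 3 the median was −0.86 and 1 was called lower, where 2.53% of genes were. No gene of these lists was called in APB5 against IgG or in IgG+Mino against IgG.

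**Figure D5:**
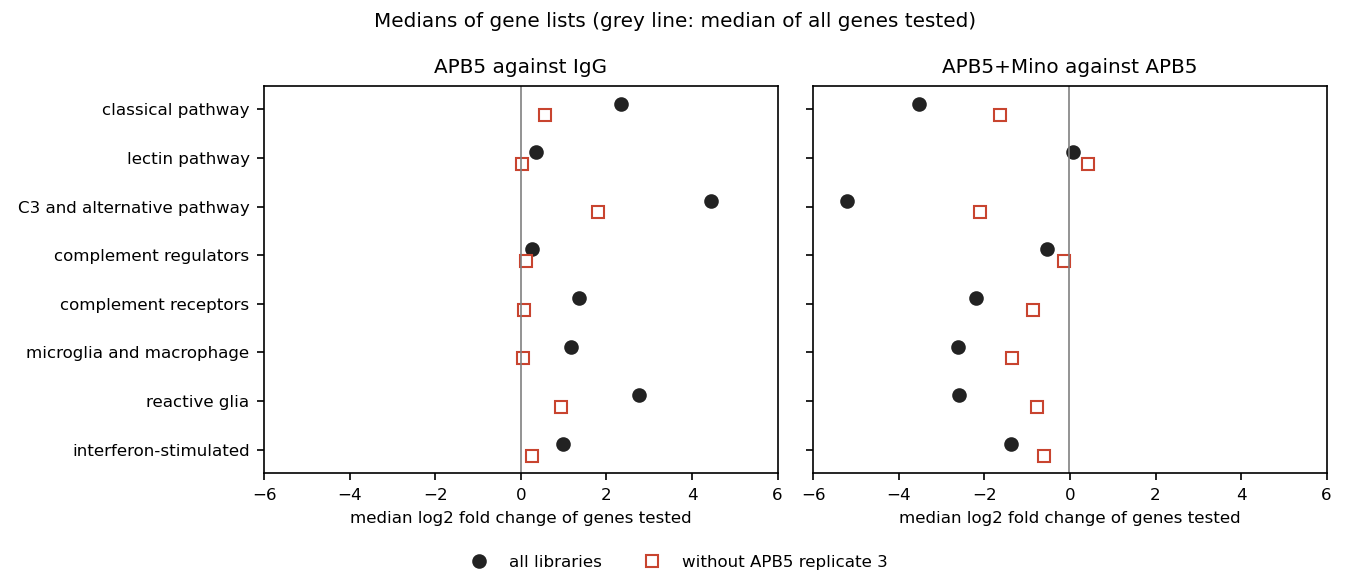
Median log2 fold change of the tested genes of 8 lists in APB5 against IgG and in APB5+Mino against APB5, with all libraries (black circles) and without APB5 replicate 3 (open squares), and a grey line at the median of all genes. The classical pathway has medians of 2.34 and −3.52 with all libraries and 0.55 and −1.63 without that library, and the lectin pathway has medians of 0.36 and 0.0781, or 0.0161 and 0.42 without it.

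Lists of other cell types differed between the same groups. Between APB5+Mino and APB5 the microglia and macrophage list had 2 of 18 genes called lower and a median log2 fold change of −2.62, where 0.819% of all genes were called lower. With APB5 replicate 3 left out there were 9 calls of 18 and a median of −1.34, where 2.53% of genes were called lower. The 2 called with all libraries were the fractalkine receptor Cx3cr1, which fell by 3.84 on the log2 scale (edgeR adjusted P = 0.0447), and Fcrls, which fell by 5.23 (adjusted P = 0.0476), both with an adjusted P of 0.0641 under the block. The 12 reactive glia genes had a median of −2.59 on the log2 scale and no call, or −0.78 and 5 calls without that library. The interferon-stimulated list had a median of −1.37 with Isg15 and Psmb8 of 12 called lower, or −0.60 and 3 calls without it. The fibroblast and sclera list had Fbln1 and the endothelial list Cldn5 called lower, and these 4 genes also had an adjusted P of 0.0641 under the block. The summed fibroblast and sclera genes were 154.7 to 957 CPM in APB5 and 76.5 to 90.7 CPM in APB5+Mino, and the summed pigment epithelium and choroid genes 444 to 1182 and 297.4 to 340.2 CPM. The part of each of these cell types in the member genes was not tested. The monocyte and neutrophil list summed to 6.94 to 16.2 CPM, highest in APB5 replicate 3, of which Lyve1 alone made 5.57 to 9.69 CPM. Named after their values were seen, Plac8 (1.84 CPM), S100a8 (1.73 CPM) and Ccr2 (0.609 CPM) of that list were higher in APB5 replicate 3 than elsewhere, where they were at most 0.123, 0.19 and 0.0691 CPM. Cd163 and Lyve1 of the same list peaked in IgG, at 0.509 and 9.69 CPM, and Ly6c2 in APB5+Mino, at 0.17 CPM. Of the 4 list genes tested in APB5 against IgG, 1 had a positive log2 fold change and 3 a negative one. The lens list ranged from 3.70 to 1884 CPM and the red blood cell list from 53.5 to 258 CPM.

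In APB5+Mino against IgG+Mino, where the C1q chains were lower, the microglia and macrophage list had 3 of 18 genes called lower, Cx3cr1 (−2.21), Fcrls (−1.92) and Ly86 (−1.29, edgeR adjusted P = 0.0182, 0.015 and 0.0399). All 18 had negative log2 fold changes, with a median of −0.62, and 12 of 18 did not overlap. Over all genes 0.349% were called lower and 17.2% were lower without overlap. The chains, at −0.89 to −0.66, lay below that median.

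The genes whose levels were most like those of the members over the 12 libraries were found among 15808 genes by Pearson correlation of log2 CPM, as a description. For the summed C1q chains these were Tyrobp (r = 0.994), Mmp14, S100a1, Tmem176b and Dap (0.991), and r was 0.960 to 0.981 without APB5 replicate 3. For C4b they were 9330159M07Rik (0.987), Pdgfra, Pcolce, Pdlim3 and Lsp1 (0.965), with 0.923 to 0.979 without that library. For Serping1 they were Cmtm3 (0.991), A2m, Serpinf1, C3 and B2m (0.988), with 0.940 to 0.959, and for summed C1ra and C1s1 Pbxip1 (0.989), Serpinf1, Col9a3, Tnfrsf1b and S100a6 (0.982), with 0.902 to 0.933. All points share the 12 libraries, and the extreme position of APB5 replicate 3 raises each value. Among the members, the C1q chains were most alike at 0.987 to 0.994 (0.947 to 0.978 without APB5 replicate 3) and C4b with Serping1 stayed at 0.957 and 0.954, whereas C4b with C2 went from 0.775 to 0.342.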

How the data were processed

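Retinal RNA of 12 libraries was measured, 3 in each of 4 groups taken from the deposited labels. Per the authors' methods, poly-A RNA was made into stranded libraries and sequenced as single reads of 50 bases, and the submitters' processing notes list bcl2fastq 2.20, DRAGEN and mm39. The DRAGEN version, the use of strand in counting and the handling of reads with several matches are not given in the sources used here. The deposited gene table holds counts of reads per gene without normalization, made by the authors. It repeats 3 columns, which were identical and left out. The authors' deposited transcript tables hold a signal per group, their mean normalized count, and also fold changes and p-values, which were not used. The deposited tables of comparisons per gene were not used either.

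Counts were analysed with R 4.3.3, edgeR 4.0.16 (TMM, filterByExpr, quasi-likelihood test, prior count 2, Benjamini-Hochberg adjustment over all genes tested) and DESeq2 1.42.0, with only the compared groups in a fit. Standard errors were derived from the fold change and F statistic. The test was checked on counts simulated from the minocycline groups alone, with a fixed dispersion and no outlying library. That check does not cover the spread of comparisons that hold APB5. Exact permutation tests were two-sided. Depth was 52740545 to 59411044 counts. The floor covers counting error only, whereas the standard errors and SDs include the spread between libraries. Alternatives were RLE scaling, DESeq2, no count filter, all 12 libraries, replicate block, Xist as a covariate, no fold threshold, summed copies, another denominator and each library left out. Library size only was added after seeing the data.

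For APB5+Mino against APB5, same-numbered libraries deviated together (r = 0.119, 0.169 and 0.127), so the blocked value is given beside calls. Libraries of different number reached 0.188 in APB5 against IgG, so such values do not show a pairing. The labels do not say what a number marks. In the other comparisons at least 1 of the 3 values of same-numbered libraries was under 0.1.

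Member genes and lists were chosen with earlier results of these data known, the lists from general knowledge. Named are the 8 members, up to 4 called genes a list by smallest P, C3, and the 5 genes most correlated with each member pattern among genes of at least 1 CPM. Tyrobp is such a gene. Gene spans and shared windows are from GENCODE vM39 on GRCm39. The authors' methods name an annotation from NCBI for the counts, so shared windows need not match how reads were assigned. RefSeq windows were found for 4 of 8 members, C1qb, C1qc, C1ra and C1s1. C1qa, C2, C4b and Serping1 had none. Protein sequences were not analysed here. A summed level of retinal markers is not reported here.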

Additional observations from a re-analysis of the deposited data

Results flagged for a closer look

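2 genes had every APB5 library above every IgG library and every APB5+Mino library below every IgG+Mino library, so that the antibody difference had opposite directions without and with minocycline. They were chosen by this pattern, so a negative interaction in the same libraries followed from the choice. The share of all genes with this pattern is not given here. In APB5 against IgG the edgeR adjusted P was 0.664 for both. In APB5+Mino against IgG+Mino it was 0.0125 for C1qa and 0.0964 for Serping1. For C1qa the interaction was −3.39 ± 0.93 on the log2 scale (SE, edgeR adjusted P = 0.159), and for Serping1 it was −3.66 ± 0.97 (edgeR adjusted P = 0.155). Neither passed the threshold with all libraries. The IgG libraries were all high in Xist and the IgG+Mino libraries all low, so none of these interaction values is free of sex. Without APB5 replicate 3 the interaction was −1.56 ± 0.20 for C1qa and −1.77 ± 0.28 for Serping1 (SE, edgeR adjusted P = 0.00828 and 0.029). With Xist as a covariate it was −4.46 and −4.71 (edgeR adjusted P = 0.0153 and 0.0154). No formal test for a single outlying library was made within groups of 3.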

How the results depend on the processing

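Among alternative values of log2 fold changes of members, 504 kept direction and side of the threshold, 58 newly passed it, 6 lost it and 22 turned sign. The cause of these changes was not tested. Without TMM scaling the median of all genes in APB5+Mino against APB5 was −0.108, and with it −0.0205.

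The number of members called in APB5 against IgG was 0 with all libraries, 1 with DESeq2, 1 with all 12 libraries in the fit and 7 with Xist as a covariate, and 0 to 1 with a library left out. In APB5+Mino against APB5, with 1 call, it was 4 with DESeq2, 5 with no count filter, 0 with library size only, 8 with all 12 libraries, 8 with Xist as a covariate and 0 to 8 with a library left out. With the replicate block, which treats the replicate number as if it paired libraries, it was 0, and no other comparison of members changed its number of calls under the block. In APB5+Mino against IgG+Mino it was 3 with no fold threshold. For the interaction it was 1 with DESeq2, 1 with no count filter, 7 with Xist as a covariate and 0 to 3 with a library left out.

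Signs turned as follows. In IgG+Mino against IgG with Xist as a covariate the log2 fold change was 1.40 for C1qa, 1.32 for C1qb, 0.92 for C1qc, 1.36 for C1ra, 0.60 for C1s1, 0.78 for C2 and 1.76 for Serping1. There C4b was −0.052 with library size only and Serping1 0.0070 with the replicate block. In APB5+Mino against IgG+Mino C1s1 was −0.27 with Xist as a covariate and C2 0.0079 with the replicate block. With a library left out, C2 ranged from −0.19 to 1.83 in APB5 against IgG and its interaction from −1.87 to 0.13, both turned by APB5 replicate 3. In IgG+Mino against IgG C4b ranged from −0.19 (without IgG replicate 1) to 0.31 and Serping1 from −0.21 to 0.16 (without IgG replicate 3). In APB5+Mino against IgG+Mino C1ra ranged from −0.27 to 0.10 and C2 from −0.32 to 0.19, both highest without IgG+Mino replicate 3. The log2 ratio of C1q chains to the microglia list ranged from −0.101 to 0.0566 in IgG+Mino against IgG, and that of C1ra to C1s1 from −0.43 to 0.00826 in APB5+Mino against IgG+Mino. With homeostatic microglia genes as the denominator the C1q ratio of the 3 APB5 libraries was −0.45, −0.63 and 1.06, again above those of every other library. The lowest counts, 25 of C2 and 48 of C1ra in a library, limit the precision of these genes most.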
